A study of Mus musculus with 6 samples.

Results

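The genes described here carry fatty acids into heart muscle cells, burn them in mitochondria and use ketone bodies. They were 36 of the 35618 genes in the deposited count table, taken by gene symbol from a list ordered by step: uptake, activation, the carnitine shuttle, the 4 reactions of beta-oxidation, the electron transfer flavoprotein, thioesterases and uncoupling proteins, and ketone use. The heart is known to draw most of its energy from fatty acids. They enter through the surface protein CD36 and are bound by a small carrier in the cytosol, esterified to coenzyme A, and moved across the inner mitochondrial membrane as carnitine esters. Inside, repeated cycles of dehydrogenation, hydration, dehydrogenation and thiolysis release acetyl-CoA, and the electrons pass through the electron transfer flavoprotein to the respiratory chain. Many of these genes are known targets of the PPAR and ERR nuclear receptors and of their coactivator PGC-1alpha.

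RNA sequencing libraries were made from mouse heart, 3 from GSDMD-FLOX/FLOX mice, floxed on both alleles, and 3 from GSDMD-CKO mice, whose knockout of Gsdmd was specific to the myocardium. Its product, gasdermin D, forms membrane pores in pyroptotic cell death. All 6 libraries came from animals aged 6 to 8 weeks that received 20 mg/kg doxorubicin into the peritoneum, an anthracycline with known toxicity to heart muscle, and their myocardium was taken 3 days later. Neither the promoter that drove the recombinase nor the animal behind each library is stated in the labels, and hearts without doxorubicin were not analysed here, so the values compare genotypes after the drug, and the p-values rest on the spread among libraries, which may be technical.

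Library totals lay between 17279147 and 18875902 counts, and the 36 genes held 40 to 64803 counts in each library. Gsdmd had 129118, 137849 and 144568 counts in the floxed and 1220, 2608 and 2228 in the knockout libraries, as their labels say. Of 9 cardiomyocyte markers, all were detected in every library, at a summed 17821 to 25794 CPM in the floxed and 10784 to 22197 CPM in the knockout libraries. The libraries did not group by genotype alone. Across the tested genes, which are not independent replicates, log2 CPM (counts scaled to library size) of knockout library 1 correlated at 0.932 with knockout library 2 and at 0.899 with knockout library 3, but at 0.970 with floxed library 2. Floxed library 1 correlated at 0.962 with knockout library 2 and at 0.963 with knockout library 3. Its values with floxed libraries 2 and 3 were 0.963 and 0.979. Mitochondrially encoded genes took 18.1% of the counts in knockout library 1, and 5.48% to 11.2% in the others. The comparison of the fatty acid genes is therefore given with and without knockout library 1. That library was picked from these same values for its likeness to a floxed library, so leaving it out favours a wider difference. Counts and p-values without it, here and for the further lists, describe this dependence and are no separate support for a difference. Because the samples are bulk tissue, fewer cells of a type and less RNA per cell cannot be told apart.

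No gene of the pathway passed the test between the genotypes, although 33 of the 36 had negative fold changes. All 36 were tested with edgeR's quasi-likelihood test on knockout minus floxed libraries, and 0 had a Benjamini-Hochberg adjusted p under 0.05, against 2 of 16591 genes tested, or 0.0121%. At an unadjusted p under 0.05 there was 1 gene, Acads, which was lower, against 2.65% of all genes tested that were lower and 4.37% that were higher. DESeq2 called 0 of the 36, with 33 negative, against 47.2% of all genes, and with 2 (Acads and Cpt1a) lower at an unadjusted p under 0.05, where 0.724% of all genes were called lower, 0.742% were called higher and 3.48% were lower at an unadjusted p under 0.05. The median log2 fold change of the 36 genes was -0.42, beside 0.03 over all genes tested, 46.2% of which were negative. The positive values were those of the carnitine transporter gene Slc22a5, the peroxisomal thiolase gene Acaa1a and the ketone gene Oxct1, at 0.12, 0.02 and 0.22.

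The genes varied together from library to library, and libraries of one genotype differed among themselves by more than the median difference between the genotypes. The level of the 36 genes, the median over them of log2 CPM relative to the floxed mean, was -0.53, 0.51 and 0.06 in floxed libraries 1, 2 and 3 and 0.14, -0.72 and -0.87 in knockout libraries 1, 2 and 3. Knockout library 1 thus stood within the floxed range, and knockout libraries 2 and 3 stood below it. Floxed library 1 was the lowest floxed library for 34 of the 36 genes, where this held for 36.3% of all genes tested, and floxed library 2 the highest for 29, against 38.8%. Knockout library 1 was the highest knockout library for 32, against 41.1%, the exceptions being Acads, Ucp2, Bdh1 and Oxct1. For 27 genes floxed library 2 and knockout library 1 were both the highest of their genotype, against 26.7%. The lowest knockout library was library 3 for 21 genes, against 35.2%, and library 2 for 13, against 23.3%. Both knockout libraries 2 and 3 lay below every floxed library for 21 of the 36 genes, against 17.0% of all genes. In shares of all counts, the 36 genes took 0.723%, 1.45% and 1.11% in the floxed and 1.18%, 0.632% and 0.547% in the knockout libraries.

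**Figure D1:**
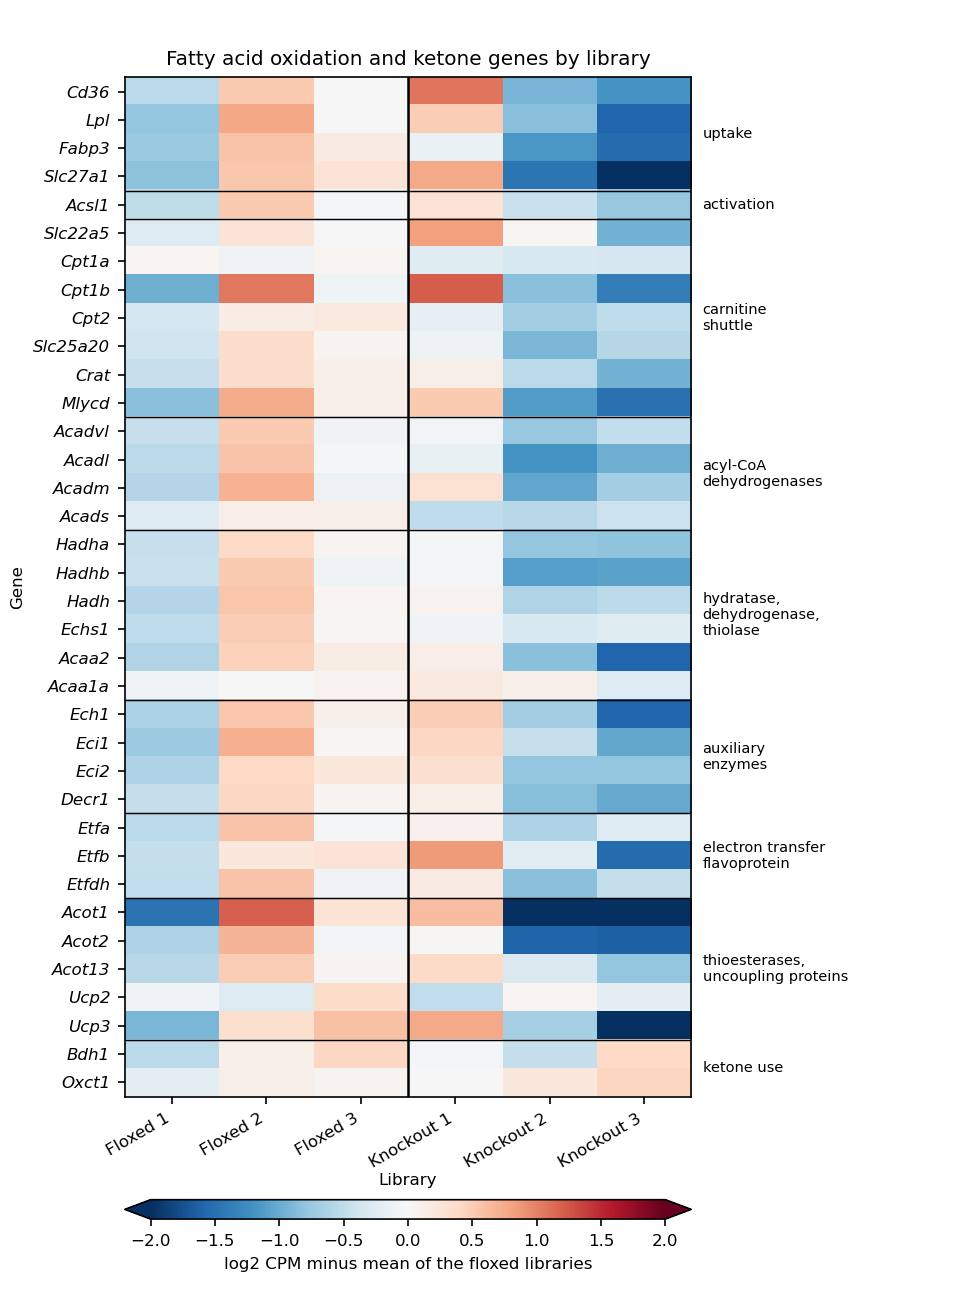
Colour shows log2 CPM relative to the floxed mean for each of the 36 genes (rows, ordered by step) in each of the 6 libraries (columns), clipped at -2 and 2. Floxed library 2 and knockout library 1 are red or pale in most rows and floxed library 1 and knockout libraries 2 and 3 are blue, while Cpt1a, Acads, Acaa1a, Ucp2, Bdh1 and Oxct1 show little of this order.

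Leaving out knockout library 1 changed the picture in size but not in calls. The median of the 36 genes was then -0.82, with 35 negative, against 51.4% of all genes, and 22 were lower at an unadjusted p under 0.05, where 8.58% of all genes tested were lower at that level. Still 0 of the 36 passed after adjustment, the smallest adjusted p being 0.0579 for Acot2, while 88 genes or 0.514% of those tested were called lower and 412 or 2.41% higher. Without floxed library 2 the median shrank to -0.15, with 25 of 36 negative, and without floxed library 1 it was -0.64. Omitting floxed library 3 left it at -0.43, knockout library 2 at -0.28 and knockout library 3 at -0.26.

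**Figure D2:**
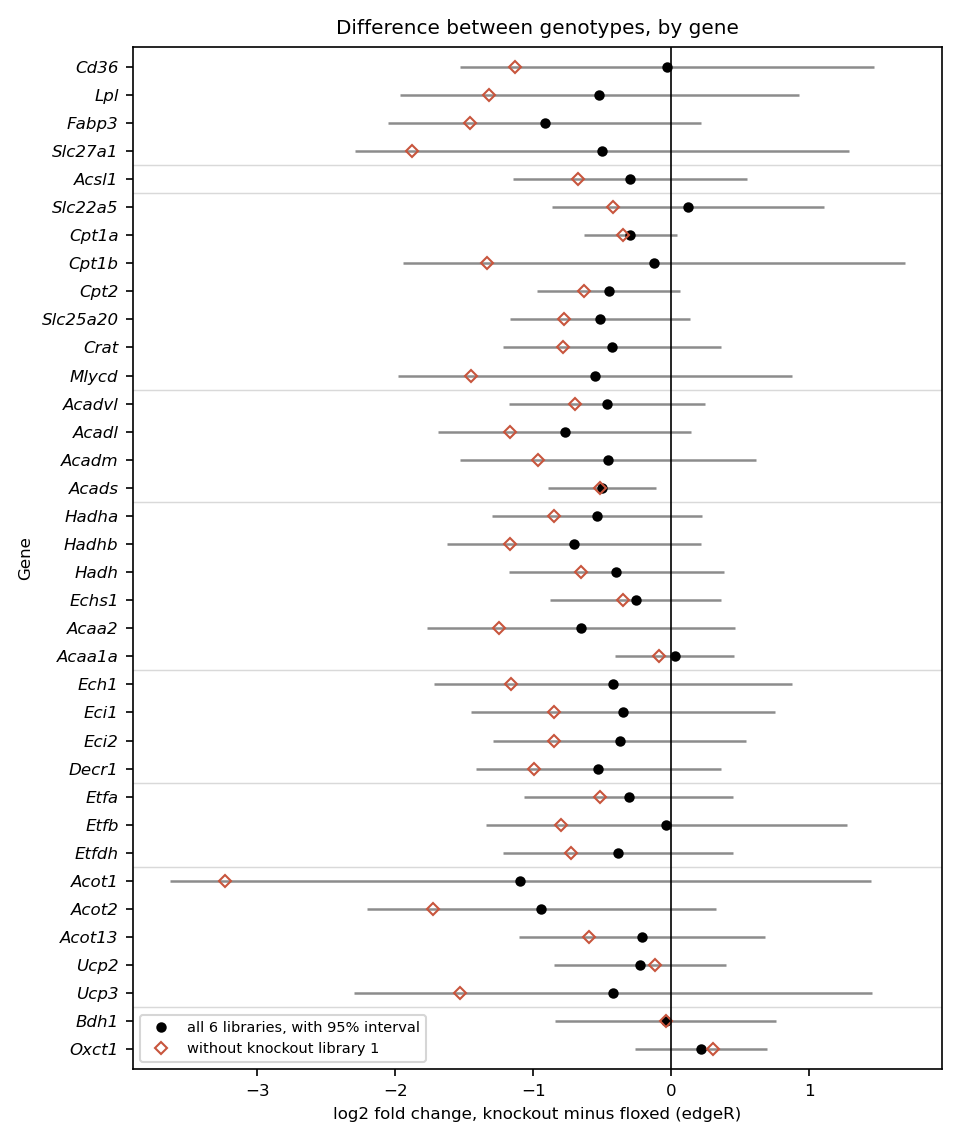
Points give edgeR's log2 fold change (knockout minus floxed) for each gene, lines its 95% interval, and open diamonds the value without knockout library 1. The interval crosses 0 for 35 of the 36 genes, Acads being the exception, and most diamonds lie to the left of their points, while those of Cpt1a, Acads, Bdh1 and Oxct1 stay near them.

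Only Cpt1a and Acads had every knockout library below every floxed library. That is 2 of 36 genes, where 5.98% of all genes tested did so, and 0 of 36 had every knockout library above, against 5.82%. Cpt1a (ENSMUSG00000024900) encodes the liver-type carnitine palmitoyltransferase of the outer mitochondrial membrane, which forms acylcarnitines and is inhibited by malonyl-CoA. It measured 90.9, 84.2 and 91.3 CPM in floxed libraries 1, 2 and 3 against 75.4, 71.0 and 70.3 CPM in knockout libraries 1, 2 and 3. Here and in what follows, ± after a log2 fold change is its standard error (SE), and adjusted p-values are those of edgeR over all genes. Its log2 fold change was -0.30 ± 0.14 (SE, 95% interval -0.63 to 0.04, adjusted p = 0.757). Acads (ENSMUSG00000029545) encodes the dehydrogenase of short-chain acyl-CoA. It measured 62.9, 82.0 and 81.2 CPM in floxed libraries 1, 2 and 3 against 52.7, 50.9 and 55.8 CPM in knockout libraries 1, 2 and 3, and its log2 fold change was -0.50 ± 0.17 (SE, 95% interval -0.89 to -0.11, adjusted p = 0.607). The groups did not overlap for either gene, and the knockout libraries lay close together, within 70.3 to 75.4 CPM for Cpt1a and 50.9 to 55.8 CPM for Acads. Without knockout library 1 the log2 fold changes were -0.35 and -0.52, nearly those with it.

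The promoters of these genes are shown because they were the ones whose libraries separated, and that of Hadhb because it lies back to back with Hadha. Sequences are the 250 bases before the RefSeq start on GRCm38.p6, read 5′ to 3′ on the gene's strand, and capitals mark GC boxes, the letters GGGCGG on either strand. They lie at chr19:3323051-3323300 (plus strand) for Cpt1a, chr5:115119347-115119596 (minus strand) for Acads and chr5:30155003-30155252 (plus strand) for Hadhb.
Cpt1a: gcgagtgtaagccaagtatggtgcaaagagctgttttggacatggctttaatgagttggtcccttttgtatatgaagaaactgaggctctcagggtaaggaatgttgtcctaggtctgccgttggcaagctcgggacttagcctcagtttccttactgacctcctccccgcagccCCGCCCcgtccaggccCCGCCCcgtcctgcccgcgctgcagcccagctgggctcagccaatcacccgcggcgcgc
Acads: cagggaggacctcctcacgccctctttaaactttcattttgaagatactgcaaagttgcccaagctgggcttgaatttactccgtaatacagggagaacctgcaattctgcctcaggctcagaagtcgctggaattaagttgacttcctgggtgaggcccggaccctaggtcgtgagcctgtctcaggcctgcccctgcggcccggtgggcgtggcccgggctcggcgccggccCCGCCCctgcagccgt
Hadhb: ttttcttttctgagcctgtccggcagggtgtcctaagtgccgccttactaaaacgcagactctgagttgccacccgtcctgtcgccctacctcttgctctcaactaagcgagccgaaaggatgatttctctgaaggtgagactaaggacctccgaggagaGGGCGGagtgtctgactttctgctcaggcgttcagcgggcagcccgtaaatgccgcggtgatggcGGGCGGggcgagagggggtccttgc
Cpt1a and Hadhb each hold 2 GC boxes in this window and Acads 1. The starts of Hadha and Hadhb point away from each other with 272 bases between them. RefSeq promoters were matched for 30 of the 36 genes, with no entry for Acot13, Cpt1b, Lpl, Acaa2, Decr1 and Crat. A GC box was present in 19 of the 30 (63.3%) and in 35.4% of 27025 genes. The 27025 include genes that were not tested here. Hadha and Hadhb, both among the 19, share most bases of their windows, so they are not separate cases. The difference in share was not tested. The letters AGGTCA repeated after 1 spacer base, a perfect direct repeat of the kind PPAR binds, were found in 0 of the 30 and in 0.0407% of genes, and TCAAGGTCA, the ERR element, in 0 of the 30 and in 0.422%. Both strands were searched, and these elements share the letters AGGTCA. Exact matches were so rare over all genes that finding 0 among 30 cannot tell these genes from others. Inexact matches and bases outside the window were not searched. A match describes letters in this window and no binding was measured.

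All 4 uptake genes had negative fold changes and spread widely between libraries. Fabp3 encodes the heart fatty acid-binding protein, the cytosolic carrier of fatty acids. It measured 873, 2188 and 1650.5 CPM in floxed libraries 1, 2 and 3 against 1336, 657 and 504 CPM in knockout libraries 1, 2 and 3. Knockout libraries 2 and 3 lay below every floxed library, knockout library 1 lay between floxed libraries 1 and 3, and the log2 fold change was -0.92 ± 0.48 (SE, adjusted p = 0.788). On GENCODE M21, 19.6% of its exonic bases are overlapped by genes on the opposite strand. The libraries were stranded, per the labels' protocols, and the effect of such overlap on the counts was not tested. Lpl, whose product frees fatty acids from lipoproteins at the vessel wall, measured 1327, 3888 and 2282 CPM in floxed against 3194, 1273 and 756 CPM in knockout libraries, and its log2 fold change was -0.52 ± 0.61, adjusted p = 0.935. Slc27a1, the fatty acid transport protein gene, measured 214, 549.5 and 457 CPM in floxed against 638, 137 and 87.1 CPM in knockout libraries, at -0.50 ± 0.76, adjusted p = 0.949. For both genes knockout library 1 was among the 2 highest libraries and knockout library 3 the lowest. Cd36 ranged over 628 to 1312 CPM in the floxed and 402 to 1911 CPM in the knockout libraries and its log2 fold change was -0.03 ± 0.63, adjusted p = 0.996. Without knockout library 1 the 4 uptake genes had log2 fold changes of -1.13 (Cd36), -1.32 (Lpl), -1.46 (Fabp3) and -1.88 (Slc27a1), a median of -1.39 in place of -0.51.

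Acsl1, the main acyl-CoA synthetase gene of heart, which activates long-chain fatty acids, measured 92.9, 189 and 129 CPM in floxed libraries 1, 2 and 3 against 161, 96.4 and 77.7 CPM in knockout libraries 1, 2 and 3. The genotypes overlapped, and the log2 fold change was -0.30 ± 0.36 (SE, adjusted p = 0.937).

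In the carnitine shuttle 6 of 7 genes had negative fold changes, with a median of -0.43. Cpt2, the palmitoyltransferase of the inner membrane that turns acylcarnitines back into acyl-CoA, measured 57.7, 81.5 and 84.0 CPM in floxed against 65.7, 45.4 and 51.9 CPM in knockout libraries. Knockout libraries 2 and 3 lay below the floxed libraries and knockout library 1 lay above floxed library 1, at a log2 fold change of -0.45 ± 0.22, adjusted p = 0.757. Slc25a20, the carrier that exchanges acylcarnitine for carnitine across the inner membrane, measured 47.1, 79.4 and 64.9 CPM in floxed against 58.3, 33.2 and 42.1 CPM in knockout libraries, at -0.52 ± 0.28, adjusted p = 0.792, with the same overlap at floxed library 1. Crat, which forms acetylcarnitine, ranged over 133 to 234 CPM in the floxed and 95.7 to 198 CPM in the knockout libraries (-0.43 ± 0.33, adjusted p = 0.890), and Mlycd, which removes malonyl-CoA, over 49.9 to 149 CPM in the floxed and 31.7 to 128 CPM in the knockout libraries (-0.55 ± 0.60, adjusted p = 0.931). Slc22a5, the plasma membrane carnitine transporter gene, ranged over 17.9 to 25.4 CPM in the floxed and 11 to 37.8 CPM in the knockout libraries (0.12 ± 0.42, adjusted p = 0.980), with knockout library 1 the highest and knockout library 3 the lowest of all libraries. Cpt1b, the muscle-type partner of Cpt1a, ranged over 5.09 to 20.9 CPM in the floxed and 3.84 to 23.2 CPM in the knockout libraries (-0.13 ± 0.77, adjusted p = 0.991), the widest relative spread of the step. Its level is uncertain, because 81.4% of its exonic bases are shared on the same strand with the readthrough gene Gm44502, which was listed at 0 counts in every library, and no source used here states how such reads were counted. By deposited FPKM, which are per gene length, Cpt1a was listed above Cpt1b by 7.88, 1.77 and 4.23 times in the floxed and 1.44, 5.53 and 8.09 times in the knockout libraries, with the same uncertainty.

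**Figure D3:**
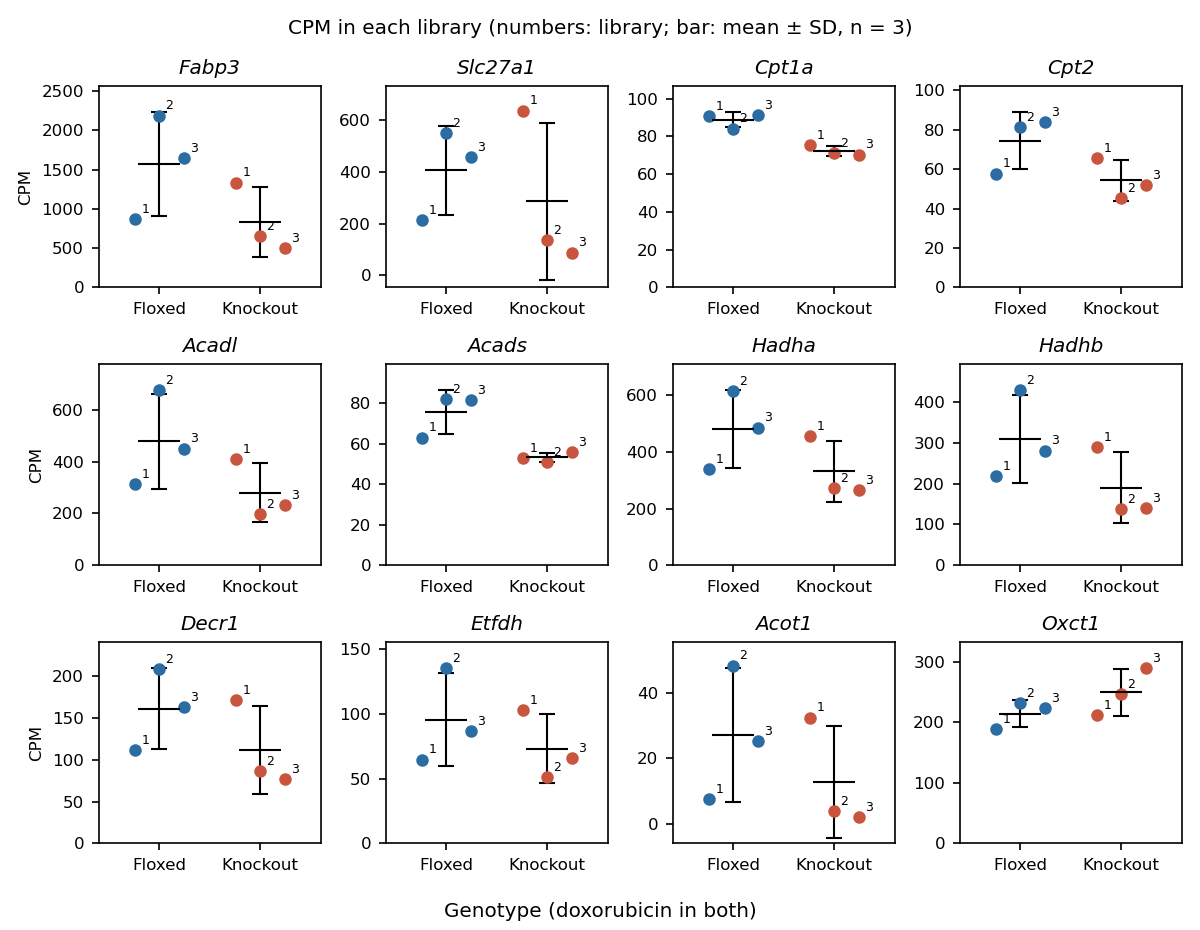
Each panel shows CPM per library (numbered points) for 1 gene, with horizontal bars at the mean and whiskers of 1 SD, n = 3 per genotype. For Cpt1a and Acads all 3 knockout points lie below the floxed points, and for Fabp3, Acadl, Hadhb and Acot1 knockout library 1 lies among the floxed points with knockout libraries 2 and 3 below them.

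The acyl-CoA dehydrogenases, which carry out the step that opens each cycle, are divided by chain length into Acadvl, Acadl, Acadm and Acads. All 4 had negative fold changes, from -0.77 to -0.46. Acadl, the long-chain enzyme, measured 312, 674 and 449.7 CPM in floxed libraries 1, 2 and 3 against 409.6, 198 and 233 CPM in knockout libraries 1, 2 and 3, at a log2 fold change of -0.77 ± 0.39, adjusted p = 0.769. Acadvl, the very long-chain enzyme on the inner membrane, measured 52.6, 105 and 69.2 CPM in floxed against 69.5, 42.8 and 51.3 CPM in knockout libraries, at -0.47 ± 0.30, adjusted p = 0.854. In both, knockout library 1 lay between floxed libraries 1 and 2, and knockout libraries 2 and 3 were the lowest of the 6. On GENCODE M21, 42.9% of the exonic bases of Acadvl lie opposite Dvl2, which measured 16.2 to 19.3 CPM in the floxed and 19.1 to 21.8 CPM in the knockout libraries. As for Fabp3, the effect of this opposite-strand overlap in stranded libraries was not tested. Acadm, the medium-chain enzyme, ranged over 177 to 427 CPM in the floxed and 128 to 325 CPM in the knockout libraries (-0.46 ± 0.45, adjusted p = 0.920). Within the knockout Acads spanned 50.9 to 55.8 CPM and Acadl 198 to 409.6 CPM.

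Hadha and Hadhb encode the subunits of the mitochondrial trifunctional protein, which performs the last 3 reactions on long chains. Hadha measured 341, 615 and 487 CPM in floxed libraries 1, 2 and 3 against 456, 273 and 266 CPM in knockout libraries 1, 2 and 3. Hadhb measured 218, 428 and 280.3 CPM in floxed against 289.7, 138 and 141 CPM in knockout libraries. Both genes had the same order of libraries in the floxed hearts, with library 2 highest and library 1 lowest, and knockout libraries 2 and 3 below all others. The log2 fold changes were -0.54 ± 0.32, adjusted p = 0.836 for Hadha and -0.71 ± 0.39, adjusted p = 0.803 for Hadhb. Their FPKM ratio, Hadha over Hadhb, was 1.18, 1.09 and 1.31 in the floxed and 1.19, 1.5 and 1.43 in the knockout libraries, so the paired subunits kept a ratio between 1.09 and 1.5 while each level varied more widely. Acaa2, the mitochondrial thiolase gene, measured 211, 436 and 351 CPM in floxed against 351, 178 and 106 CPM in knockout libraries (-0.65 ± 0.47, adjusted p = 0.877), with knockout library 3 the lowest. Hadh, which oxidises shorter hydroxyacyl chains, ranged over 86.9 to 192 CPM in the floxed and 86.0 to 137 CPM in the knockout libraries (-0.40 ± 0.33, adjusted p = 0.896), and Echs1, the short-chain enoyl-CoA hydratase gene, over 75.1 to 149 CPM in the floxed and 86.2 to 102 CPM in the knockout libraries (-0.26 ± 0.26, adjusted p = 0.921). The peroxisomal thiolase gene Acaa1a, which varied least of the step among the floxed libraries, ranged over 117 to 129 CPM in the floxed and 103 to 140.2 CPM in the knockout libraries (0.02 ± 0.18, adjusted p = 0.993). It shares 7.21% of its 100-base windows with the near copy Acaa1b, so part of its reads may match both.

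The auxiliary enzymes prepare unsaturated fatty acids for the cycle, and all 4 had negative fold changes. Decr1, the dienoyl-CoA reductase gene, measured 112, 208 and 163 CPM in floxed against 171, 86.0 and 77.1 CPM in knockout libraries (-0.53 ± 0.37, adjusted p = 0.870). Eci2, an enoyl-CoA isomerase gene, measured 64.8, 131 and 114 CPM in floxed against 123, 57.9 and 58.2 CPM in knockout libraries (-0.37 ± 0.39, adjusted p = 0.924), and Ech1, which encodes the dienoyl-CoA isomerase, 406, 916 and 681 CPM in floxed against 886, 396 and 210.4 CPM in knockout libraries (-0.42 ± 0.55, adjusted p = 0.942). In these 3 genes knockout libraries 2 and 3 lay below every floxed library and knockout library 1 lay above floxed library 1. Eci1, another isomerase gene, ranged over 63.7 to 174 CPM in the floxed and 52.3 to 141 CPM in the knockout libraries (-0.35 ± 0.47, adjusted p = 0.946).

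The electron transfer flavoprotein consists of the products of Etfa and Etfb, and Etfdh encodes the oxidoreductase that passes its electrons to ubiquinone. Etfdh measured 64.8, 135 and 86.7 CPM in floxed against 103, 50.9 and 65.8 CPM in knockout libraries (-0.39 ± 0.35, adjusted p = 0.906), and Etfa 83.1, 179 and 118 CPM in floxed against 127, 78.5 and 100.3 CPM in knockout libraries (-0.31 ± 0.32, adjusted p = 0.923). For both, knockout library 3 lay above floxed library 1, so the genotypes overlapped even without knockout library 1. The FPKM ratio of Etfa to Etfdh ran from 5.24 to 5.57 in the floxed and from 5.08 to 6.30 in the knockout libraries, a narrow range beside their levels. Etfb measured 106, 169 and 175 CPM in floxed against 265, 125 and 50.1 CPM in knockout libraries (-0.03 ± 0.55, adjusted p = 0.996), the highest in knockout library 1 and the lowest in knockout library 3. Its level is uncertain, since 58.2% of its exonic bases are shared on the same strand with Etfbl and Mir7051, and Etfbl was listed at 0 counts in every library. With that uncertainty, the FPKM ratio of Etfa to Etfb was 0.498, 0.670 and 0.427 in the floxed and 0.305, 0.400 and 1.27 in the knockout libraries. This range was wider than that of Etfa to Etfdh.

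Thioesterases split acyl-CoA back into fatty acid and coenzyme A, and uncoupling proteins sit in the inner membrane. Acot2, the mitochondrial thioesterase gene, measured 25.9, 63.6 and 38.3 CPM in floxed libraries 1, 2 and 3 against 40.6, 13.1 and 12.9 CPM in knockout libraries 1, 2 and 3, at a log2 fold change of -0.94 ± 0.53, adjusted p = 0.818. Its cytosolic relative Acot1 measured 7.58, 48.2 and 25.3 CPM in floxed against 32.4, 3.82 and 2.0 CPM in knockout libraries, at -1.09 ± 1.07, adjusted p = 0.919, the widest spread of the 36 genes, with 40 counts in knockout library 3 and 804 in floxed library 2. In both genes knockout libraries 2 and 3 lay below every floxed library, and without knockout library 1 the log2 fold changes were -1.73 for Acot2 and -3.23 for Acot1. The pair is uncertain, as 17.1% of the 100-base windows of Acot2 and 9.32% of those of Acot1 are identical between them. Ucp2 measured 599, 526 and 824 CPM in floxed against 452, 655 and 556 CPM in knockout libraries (-0.23 ± 0.26, adjusted p = 0.935) and did not follow the order of the other genes, with floxed library 3 the highest and knockout library 1 the lowest. Ucp3, the uncoupling protein of muscle, ranged over 17.6 to 49.7 CPM in the floxed and 4.69 to 55.7 CPM in the knockout libraries (-0.42 ± 0.79, adjusted p = 0.960), highest in knockout library 1 and lowest in knockout library 3. Acot13 ranged over 107 to 223 CPM in the floxed and 92.0 to 206 CPM in the knockout libraries (-0.21 ± 0.38, adjusted p = 0.959).

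The 2 ketone genes had another order of libraries. Oxct1 encodes succinyl-CoA transferase, which activates acetoacetate in tissues that burn ketone bodies. It measured 189, 231 and 223 CPM in floxed libraries 1, 2 and 3 against 212, 246 and 289 CPM in knockout libraries 1, 2 and 3. Knockout libraries 2 and 3, the lowest for most of the pathway, were the highest for Oxct1, and knockout library 1 lay inside the floxed range. The log2 fold change was 0.22 ± 0.20 (SE, 95% interval -0.26 to 0.70, adjusted p = 0.910), which is no call. Of the 36 genes, Oxct1 was the single one with both of these libraries above every floxed library, where 20.4% of all genes tested showed this. The FPKM ratio of Oxct1 to Acadl was 0.328, 0.186 and 0.269 in the floxed and 0.281, 0.673 and 0.674 in the knockout libraries. This ratio restates the levels of 2 genes whose fold changes had opposite signs (0.22 and -0.77), and fuel use was not measured. Bdh1, which interconverts hydroxybutyrate and acetoacetate, measured 6.03, 9.54 and 11.7 CPM in floxed against 8.63, 6.34 and 11.6 CPM in knockout libraries (-0.04 ± 0.34, adjusted p = 0.993), with full overlap.

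Levels differed widely between genes when set per length. In deposited FPKM, Fabp3 averaged 1881 ± 739 FPKM in floxed and 985 ± 435 FPKM in knockout hearts (SD, n = 3), which was 33.7% to 44.2% of the summed FPKM of the 36 genes. Ech1, Cd36, Acadl, Lpl, Acot13 and Acaa2 followed, at floxed means of 217 to 288 FPKM. Among the dehydrogenases the floxed means were 235.5 FPKM for Acadl, 71.0 for Acadm, 33.0 for Acads and 27.7 for Acadvl. At the low end, Bdh1 averaged 2.32 ± 0.715 FPKM in floxed and 2.31 ± 0.838 FPKM in knockout hearts (SD, n = 3). The summed FPKM of the 36 genes was 2781, 5777 and 4529 in the floxed and 4329, 2339 and 1978 in the knockout libraries.

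**Figure D4:**
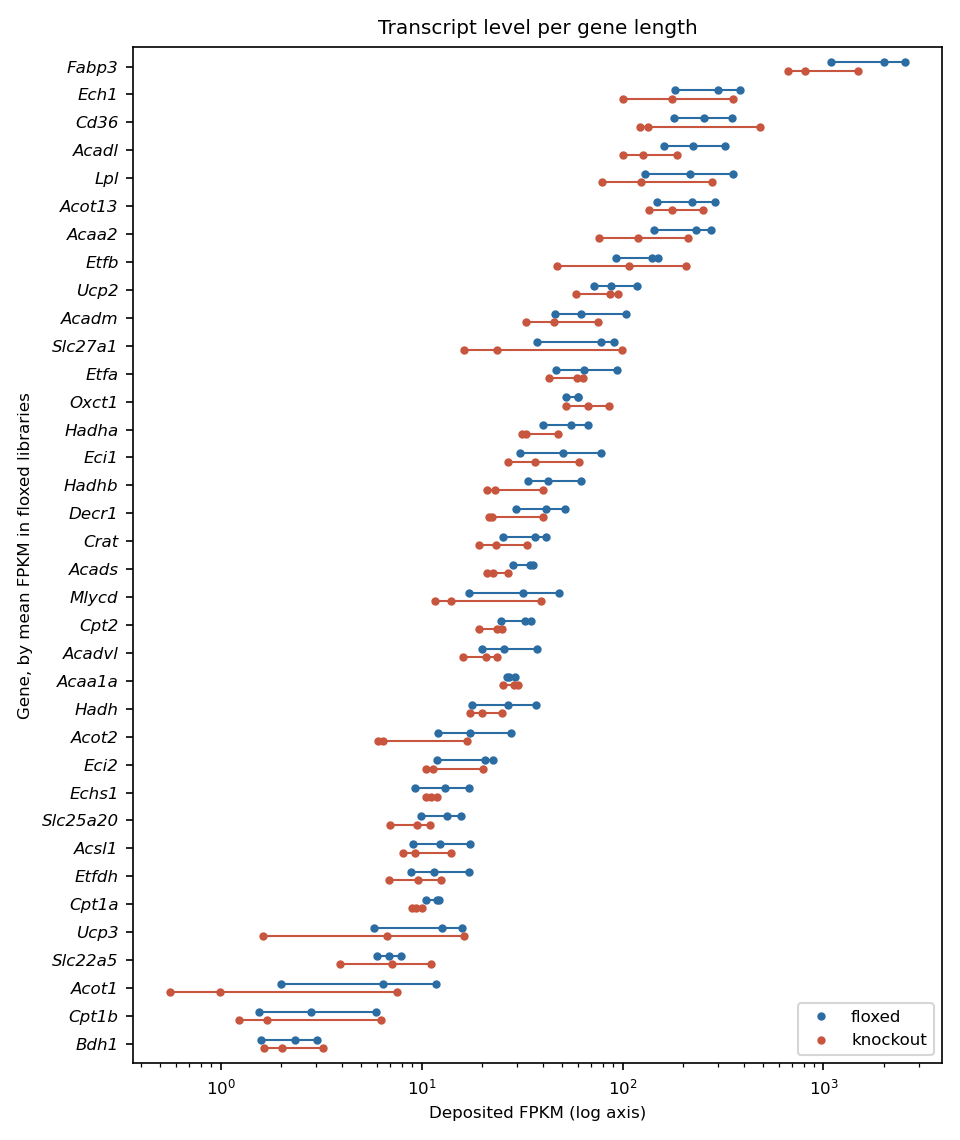
Points give the deposited FPKM of each gene in each library on a log axis, blue for floxed and red for knockout, joined within a genotype, and genes are ordered by the floxed mean. Fabp3 stands at the top and Bdh1 at the bottom, and the red and blue ranges overlap for all genes except Cpt1a and Acads.

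Further genes of the pathway outside the 36 were taken from a list by function: other uptake and activation genes, malonyl-CoA and carnitine control, peroxisomal oxidation, other mitochondrial enzymes and other ketone genes. Of 57 listed genes 56 had a row and 53 were tested. In edgeR 0 were called, 35 had negative and 18 positive fold changes, and the median was -0.13. At an unadjusted p under 0.05 there were 2, both lower, or 2 of 53 beside the 2.65% of all genes tested that were lower, and 3 in DESeq2, which also called 0. Every knockout library lay below every floxed library for 5 of the 53 genes, beside 5.98% of all genes, and above for 0, beside 5.82%. Without knockout library 1 the median was -0.30 and 15 of the 53 were lower at an unadjusted p under 0.05, where 8.58% of all genes were. The smallest unadjusted p-values belonged to Them4, a mitochondrial thioesterase gene, Abcd2, which moves very long-chain acyl-CoA into peroxisomes, and Pecr, a peroxisomal enoyl-CoA reductase gene. Them4 measured 8.00, 10.4 and 11 CPM in floxed against 4.70, 6.13 and 6.54 CPM in knockout libraries (-0.76 ± 0.25, adjusted p = 0.609), Abcd2 4.31, 7.32 and 8.59 CPM in floxed against 3.68, 3.82 and 2.80 CPM in knockout libraries (-0.97 ± 0.34, adjusted p = 0.631) and Pecr 5.92, 7.50 and 7.23 CPM in floxed against 4.32, 3.72 and 5.89 CPM in knockout libraries (-0.57 ± 0.28, adjusted p = 0.759). In these 3 genes the genotypes did not overlap.

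The nuclear receptors and coactivators that control the pathway showed no call in edgeR or DESeq2 among 14 tested genes. In both tools 0 had an unadjusted p under 0.05, 10 of the 14 fold changes were negative, and the median was -0.25. Rxra, the shared partner receptor, measured 69.2, 72.7 and 73.8 CPM in floxed against 66.4, 58.8 and 51.9 CPM in knockout libraries (-0.29 ± 0.16, adjusted p = 0.799), without overlap. Esrrg, an ERR receptor gene, measured 8.93, 11.2 and 8.16 CPM in floxed against 8.06, 4.35 and 7.49 CPM in knockout libraries (-0.51 ± 0.30, adjusted p = 0.832), and Lpin1, a coactivator and phosphatidate phosphatase gene, 28.2, 73.4 and 47.1 CPM in floxed against 45.5, 28.9 and 25.5 CPM in knockout libraries (-0.58 ± 0.38, adjusted p = 0.862). Esrrg also did not overlap, by a margin of 8.16 against 8.06 CPM. In the other direction Ppard, the gene of the PPAR delta receptor, had every knockout library above every floxed library, at 30.8, 32.0 and 26.5 CPM in floxed against 32.7, 33.1 and 36.8 CPM in knockout libraries (0.20 ± 0.15, adjusted p = 0.890). These are 2 of 14 below and 1 of 14 above, beside 5.98% and 5.82% of all genes. The median of the 14 without knockout library 1 was -0.39, and Rxra and Lpin1 were lower at an unadjusted p under 0.05. Of 9 listed fuel-switch genes and other PPAR targets 6 were tested, and all 6 had negative fold changes, with a median of -0.87. In edgeR 0 were called and 1, Plin2, had an unadjusted p under 0.05, while DESeq2 called that gene lower (adjusted p = 0.00558). Plin2, a lipid droplet coat gene, measured 234, 216 and 343 CPM in floxed against 137, 132 and 122 CPM in knockout libraries (-1.02 ± 0.23, adjusted p = 0.529), with every knockout library below every floxed one. Angptl4, an inhibitor of lipoprotein lipase, measured 86.9, 58.9 and 124 CPM in floxed against 76.5, 33.5 and 54.7 CPM in knockout libraries (-0.71 ± 0.37, adjusted p = 0.785), and Plin5, which holds lipid droplets at mitochondria, 17, 69.7 and 48.1 CPM in floxed against 43.0, 12.1 and 9.54 CPM in knockout libraries (-1.06 ± 0.70, adjusted p = 0.862), both with overlap. All 6 were lower without knockout library 1 at an unadjusted p under 0.05, where 8.58% of all genes were, with a median of -1.30.

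Markers of cell types also differed between libraries of one genotype, in an order that varied by cell type. The level of 9 cardiomyocyte markers, as a median in the same units as for the 36 genes, was -0.39, 0.35 and -0.000344 in floxed libraries 1, 2 and 3 and 0.26, -0.27 and -1.17 in knockout libraries 1, 2 and 3, with 8 of 9 fold changes negative. Like the fatty acid genes, they were highest in floxed library 2 and knockout library 1 and low in floxed library 1 and knockout library 3, but knockout library 2 lay above floxed library 1. Their log2 fold changes ran from -1.79 for Nppa, the atrial natriuretic peptide gene, to 0.95 for Myh6, the alpha myosin heavy chain gene. Nppa measured 1559, 1203 and 1312 CPM in floxed against 343, 233 and 599 CPM in knockout libraries, without overlap. It was the single marker of the 9 with an unadjusted p under 0.05 in edgeR (adjusted p = 0.529) and was called lower by DESeq2 (adjusted p = 0.000912), where 0.724% of all genes were. The level of 8 T and NK cell markers was 0.50, -0.61 and 0.12 in floxed libraries 1, 2 and 3 and 0.29, 2.76 and 2.66 in knockout libraries 1, 2 and 3, 7 of 8 being positive, at a summed 53.0 to 113 CPM in the floxed and 106 to 508 CPM in the knockout libraries. They were high in the 2 knockout libraries where the fatty acid genes were low. In edgeR 0 of the 8 were called and 5 (Cd3e, Cd3d, Cd8a, Trac and Nkg7) were higher at an unadjusted p under 0.05, beside 4.37% of all genes. DESeq2 called these 5 higher, where it called 0.742% of all genes higher, and edgeR called them higher without knockout library 1, where 2.41% of all genes were. Trac, the constant segment gene of the T cell receptor alpha chain, measured 16.1, 7.98 and 7.72 CPM in floxed against 16.8, 70.4 and 74.4 CPM in knockout libraries (2.34 ± 0.59, adjusted p = 0.529). With Cd8a and Nkg7 it was 1 of 3 among the 8 with every knockout library above every floxed one, beside 5.82% of all genes. None of the 8 was at 0 counts in any library. Macrophage markers, 4 of 6 negative and 2 of 6 without knockout library 1, stood at 0.34, -0.59 and 0.19 in floxed libraries 1, 2 and 3 and -1.23, 0.36 and 0.20 in knockout libraries 1, 2 and 3 and summed to 1293 to 2419 CPM in the floxed and 893 to 2347 CPM in the knockout libraries. For fibroblast markers, 5 of 6 negative and 3 of 6 without that library, the level was 0.50, -0.55 and 0.07 in floxed libraries 1, 2 and 3 and -0.90, -0.37 and 0.36 in knockout libraries 1, 2 and 3, with sums of 3228 to 6159.5 CPM in the floxed and 2601 to 7049 CPM in the knockout libraries. Both were lowest in knockout library 1 and next lowest in floxed library 2. Endothelial markers, 6 of 6 positive with all libraries and 4 of 6 negative without knockout library 1, lay at 0.06, 0.22 and -0.19 in floxed libraries 1, 2 and 3 and 0.80, 0.47 and -0.77 in knockout libraries 1, 2 and 3, with sums of 918 to 1183 CPM in the floxed and 610.3 to 1861 CPM in the knockout libraries. Skeletal muscle, another tissue that burns fatty acids, had 4 of 6 markers tested, all 4 negative. Their level was -0.02, -0.18 and 0.08 in floxed libraries 1, 2 and 3 and -0.78, -0.70 and -1.40 in knockout libraries 1, 2 and 3. The summed markers ranged over 824 to 970.2 CPM in the floxed and 382 to 755 CPM in the knockout libraries. Every knockout library lay below the floxed libraries in this level and sum. Whether these counts came from skeletal muscle or from heart cells that express the same genes cannot be told from bulk tissue. Taken singly, 2 of the 4 markers had every knockout library below every floxed one, beside 5.98% of all genes. Without knockout library 1, 3 of the 4 were negative. With all libraries 1 marker, the fast troponin gene Tnnt3, was called lower (edgeR adjusted p = 0.0192), where 0.0121% of all genes were called. The part of these cell types in the result was not tested. Fat tissue also burns and stores fatty acids. White adipocyte markers summed to 0.720 to 1.03 CPM in the floxed and 0.105 to 3.62 CPM in the knockout libraries, with Lep at 0 counts in every library, and none of the 6 passed the filter. Brown adipocyte markers summed to 515 to 996 CPM in the floxed and 353 to 1052 CPM in the knockout libraries, nearly all from Cox7a1 and Cox8b, which heart also expresses, while Ucp1 had 0 to 10 counts and Elovl3 0 to 4.

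**Figure D5:**
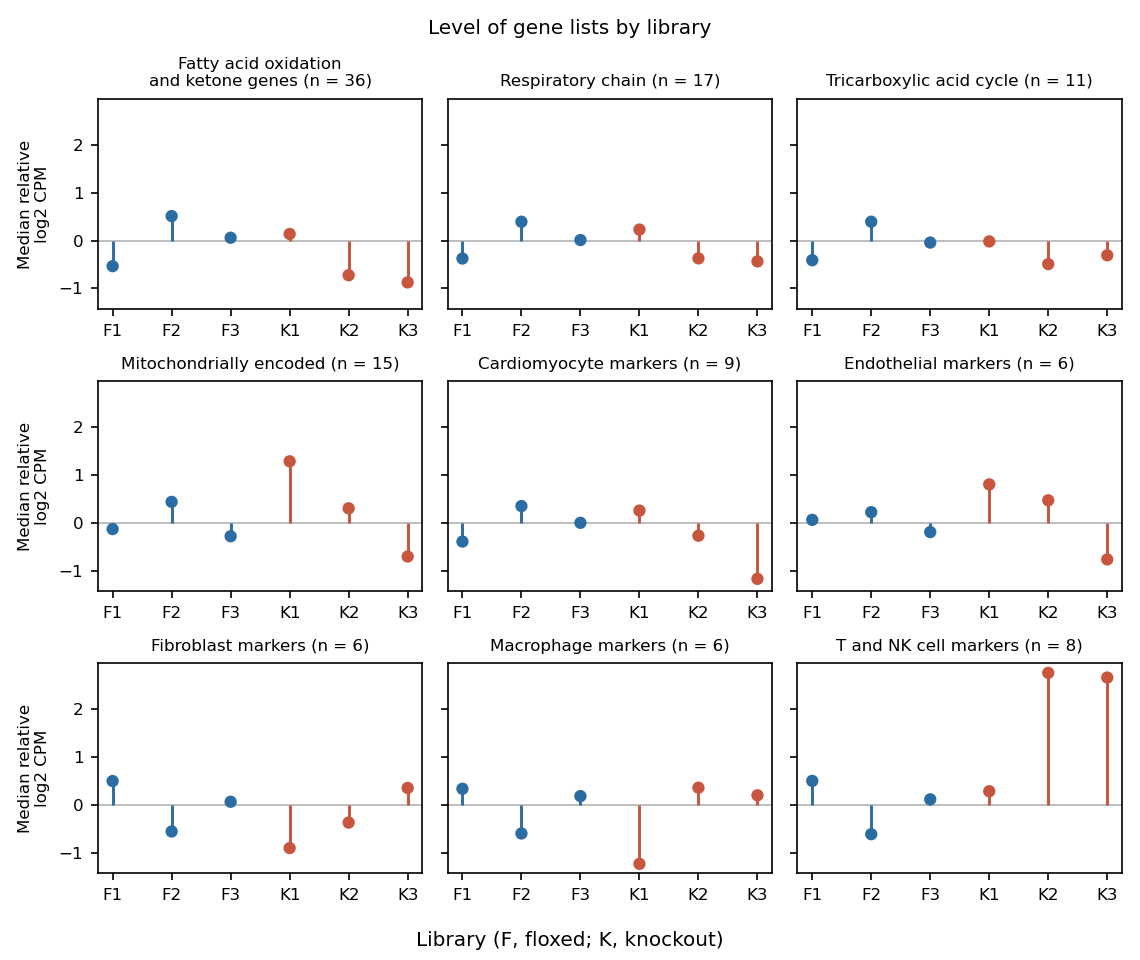
Each panel gives, for 1 gene list, the median over its tested genes of log2 CPM relative to the floxed mean, in floxed (F, blue) and knockout (K, red) libraries 1 to 3. The fatty acid genes, respiratory chain, tricarboxylic acid cycle and cardiomyocyte markers are each higher in F2 than in F1 and higher in K1 than in K2 and K3, and the T and NK cell markers reach 2.76 and 2.66 in K2 and K3.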

How the data were processed

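Stranded mRNA libraries from heart total RNA were sequenced, per the labels' protocols. The submitters' processing notes name the build mm10 and, with no role or order, featureCounts 1.6.2, HISAT2 2.1.0, fastp 0.19.3, Cufflinks, StringTie 1.3.4d, GATK 4.0.11.0 and DESeq2 1.22.1. The authors deposited raw counts per gene for 35618 genes and FPKM for 35606. For 2077 genes with high counts the deposited FPKM equalled count over library total and gene length to within 0.0498%. No source used here states how reads matching several genes were counted. The table's gene positions are not printed, since only 2.26% of the starts equal those of GENCODE M21, which is on the build the notes name. The span from start to end was the same for 98.3% of the matched genes, so positions differed while lengths mostly did not.

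Counts were fitted with edgeR 4.0.16 in R 4.3.3 (filterByExpr with a minimum count of 10, TMM, robust quasi-likelihood F test, genotype as the only term), and p-values were adjusted over all 16591 genes tested, which hold 99.8% of the counts. The biological coefficient of variation was 33.3%. Values after ± are SD where marked, and otherwise the standard error of the log2 fold change, derived from the F statistic. CPM use TMM-scaled library sizes. Library levels use log2 CPM with a prior count of 2. No p-value is given over a list, and none is given from exact permutation, whose smallest p for 3 libraries against 3 is 0.1. Exon overlaps and 100-base windows shared between paralogs come from GENCODE M21, and promoters from RefSeq on GRCm38.p6. The 36 genes and all lists were chosen with earlier results of these data known.

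Values per library are given for up to 3 genes with the smallest p in each step and for genes whose genotypes do not overlap, and other genes by range. For the further lists the 3 genes with the smallest p are named. A gene that stood in these further lists is not reported here and was left out of their counts and medians. Alternatives were RLE normalisation, 2 other filters, DESeq2 1.42.0, library sizes that leave out Gsdmd and mitochondrially encoded genes, no robust estimation, a replicate block, limma 3.58.1 on log2 FPKM with pseudocounts of 1 and 0.1 and on a mean FPKM of at least 1, and each library left out in turn. Counting error is small for most genes at these depths. It is larger at low counts, as in knockout library 3 for Acot1 (40), Cpt1b (77) and Ucp3 (94). The spread between libraries also limits the precision. Figures were drawn with matplotlib 3.10.9.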

Additional observations from a re-analysis of the deposited data

How the results depend on the processing

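None of the 36 genes was called under any of the 16 alternatives run, and the smallest adjusted p was 0.0579, for Acot2 without knockout library 1. Their median log2 fold change stayed negative, between -0.458 and -0.417 under other normalisations, filters, tests and units, and between -0.825 and -0.146 when each library was left out in turn. Of 576 pairs of gene and alternative 28 changed sign, in 12 genes, and 24 genes kept their sign throughout. Cpt1a ranged from -0.35 to -0.26 and Acads from -0.62 to -0.44. Without knockout library 1 the medians of the uptake genes and of the thioesterase and uncoupling protein genes were -1.39 and -1.53. Over all genes, 2 calls became 10 with no filter on low counts, 243 with DESeq2, 1 with limma on log2(FPKM + 1) and 0 to 500 with 1 library left out, 500 without knockout library 1 and 0 without any other. The cause was not tested.

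The labels do not say whether the replicate numbers pair the samples, and with so few libraries per genotype the values cannot decide it. Deviations of same-numbered libraries from their group means correlated at -0.57, -0.31 and 0.04, and with the replicate block 0 genes were called and 509 had an unadjusted p under 0.05, while the median of the 36 genes was -0.458 and none was called.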

Other observations

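The mitochondrial pathways that take up the products of fatty acid oxidation were read from the same fit. Where 46.2% of all genes tested had negative fold changes, all 17 nuclear genes of the respiratory chain did, with a median of -0.28. So did 10 of 11 genes of the tricarboxylic acid cycle, with a median of -0.33. None was called in edgeR or DESeq2, and in both tools 0 of either list had an unadjusted p under 0.05. Without knockout library 1 the medians were -0.46 and -0.40. At an unadjusted p under 0.05, 2 genes of each list were then lower, where 8.58% of all genes were. Cox5a, a cytochrome c oxidase subunit gene, measured 162, 316 and 234 CPM in floxed against 174, 177 and 177 CPM in knockout libraries (-0.43 ± 0.26, adjusted p = 0.842). The complex III genes Uqcrc2 and Uqcrfs1 had log2 fold changes of -0.44 and -0.52. Cs, the citrate synthase gene at the entry of the cycle, measured 274, 421 and 319 CPM in floxed against 267, 251 and 269 CPM in knockout libraries (-0.37 ± 0.22, adjusted p = 0.836), with every knockout library below every floxed library. That held for 1 of the 11 cycle genes and 0 of the 17 respiratory chain genes, beside 5.98% of all genes. Mdh2 and Idh3a had log2 fold changes of -0.49 and -0.33.

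Genes encoded by mitochondrial DNA went the other way in value, with 13 of 15 positive and a median of 0.44, and 0 were called in edgeR or DESeq2. At an unadjusted p under 0.05 there was 1 in each tool. Their level was -0.13, 0.44 and -0.28 in floxed libraries 1, 2 and 3 and 1.28, 0.30 and -0.70 in knockout libraries 1, 2 and 3, so that it was highest in knockout library 1, and without that library the median was -0.26 with 12 of 15 negative. mt-Nd4l measured 10.3, 22 and 7.07 CPM in floxed against 127, 93.8 and 11 CPM in knockout libraries (2.56 ± 0.85, adjusted p = 0.611), mt-Nd3 55.3, 89.3 and 55.4 CPM in floxed against 262, 80.1 and 46.4 CPM in knockout libraries (0.96 ± 0.61, adjusted p = 0.854) and mt-Co3 299, 192 and 183 CPM in floxed against 657, 324 and 118 CPM in knockout libraries (0.70 ± 0.57, adjusted p = 0.893). All 3 overlapped between the genotypes.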
